A study of Mus musculus with 14 samples.

Results

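The 6 receptors for lysophosphatidic acid (LPA), Lpar1 to Lpar6, were described in RNA sequencing counts of the mouse hippocampus. Members were the rows of the count table that carry these symbols, 6 of 24421 genes, and 4 of the 6 (Lpar1, Lpar2, Lpar4 and Lpar6) had enough reads to pass the filter on low counts with 14897 genes in all. The hippocampi came from 7 naive male mice labelled LPAR2-/- and 7 naive male wild-type (WT) mice, with 1 library of ribosome-depleted total RNA per mouse. Labels give the same 129.C57Bl6 strain and an age of 10 to 12 weeks for both genotypes, while the deposited design text calls the mice middle-aged to old, so that their age is uncertain. According to the methods of the study, the LPAR2-/- allele lacks the downstream part of exon 2 of Lpar2, and the mutants came from a homozygous line of their own, the controls from another colony of mixed C57BL/6 and 129/SvJ stock. The genotype can therefore not be told apart from differences between the colonies. The methods and labels name the hippocampus, and the results of the study name the dentate gyrus.

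LPA is a small signalling lipid that is made outside cells mainly by autotaxin and acts on G protein-coupled receptors. Lpar1, Lpar2 and Lpar3 belong to the endothelial differentiation gene (EDG) family together with the receptors for sphingosine-1-phosphate (S1P). Lpar4, Lpar5 and Lpar6 are more closely related to the P2Y receptors for nucleotides. In the brain, Lpar1 is known from oligodendrocytes and from progenitors of the developing cortex, and Lpar2 from glutamatergic nerve endings, where it raises the release of glutamate. The plasticity-related protein PRG1 (Plppr4) lies on the other side of these synapses and takes LPA away from the synaptic cleft.

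Per mouse, between 15434620 and 23258949 reads were counted on genes, and the totals of the genotypes overlapped (exact two-sided permutation test, p = 0.893). Markers of neurons (summed level 12866 to 15375 CPM, counts scaled to the depth of each library, over all mice) and of dentate granule cells (745 to 1181 CPM) were present in every library. The library of LPAR2-/- mouse 3 stood apart by its oligodendrocyte markers, with 4359 CPM against 1076 to 2272 CPM in the other mice. Summed markers of striatal neurons did not overlap between the genotypes (65.6 to 74.5 CPM in WT and 76.0 to 86.7 CPM in LPAR2-/- mice), although 0 of these 7 genes passed the edgeR test (4 were higher at an unadjusted p under 0.05, and 1 by DESeq2). Each of the 7 had a positive log2 fold change. Of all genes tested, 6.77% passed edgeR, 22.4% had an unadjusted p under 0.05, and DESeq2 called 1388 of 14897. Single genes higher in LPAR2-/- mice without overlap made up 0.866% of those tested. The part of these markers in the results below was not tested.

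Lpar2, the targeted gene, was counted on chromosome 8 (mm10, 69822565 to 69831102, plus strand) over 3 exons with 5701 bases. Against the direction that the label leads one to look for, the libraries labelled LPAR2-/- held more Lpar2 reads than the WT libraries. Counts were 191, 160, 234, 194, 233, 144 and 148 in LPAR2-/- mice 1 to 7, and 32, 60, 38, 55, 66, 45 and 27 in WT mice 1 to 7. All 7 LPAR2-/- mice lay above the highest WT mouse. The exons are 147, 742 and 4812 bases long, and exons 1 and 3 together make up 87.0% of the counted bases. The coding sequence takes 18.3% of them. A count per gene thus rests mostly on sequence outside the deleted part, does not check the deletion, and does not say whether a receptor protein was made. The ends of the deletion are not given in the sources used here. The following stretch of the GRCm38 reference shows the end of exon 2 in capitals (150 bases, chr8:69824146-69824295) and the first 60 coding bases of exon 3 in lower case (chr8:69826291-69826350), on the plus strand and as joined in the GENCODE transcript, because the reads counted here do not tell whether transcripts of the LPAR2-/- mice carry it.
Lpar2 end of exon 2 and start of exon 3: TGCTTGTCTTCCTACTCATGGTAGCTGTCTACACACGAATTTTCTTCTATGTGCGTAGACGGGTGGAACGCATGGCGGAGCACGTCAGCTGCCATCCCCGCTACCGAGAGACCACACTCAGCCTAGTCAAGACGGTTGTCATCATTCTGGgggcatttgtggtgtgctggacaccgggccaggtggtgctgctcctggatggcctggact

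In WT hippocampus, Lpar1 was the most abundant LPA receptor and Lpar3 the least. Levels were compared as reads scaled to the depth of the library and to the counted exon length (RPKM), since the receptors differ in counted length from 1515 bases (Lpar5) to 5701 bases (Lpar2). Lpar1 had a mean of 3.36 ± 0.787 RPKM (SD, n = 7 mice), with a lowest, median and highest mouse of 2.16, 3.45 and 4.70. Lpar6, a receptor that prefers LPA species with the fatty acid at the middle carbon, followed with 2.20 ± 0.221 (1.88, 2.15 and 2.59). Lpar4, which is known from vessel formation, had 1.58 ± 0.274 (1.28, 1.51 and 2.02). These 3 receptors lay near the middle of all genes of the table, above 57.0%, 53.1% and 50.1% of them. Lpar2 was far lower, at 0.414 ± 0.119 RPKM (0.265, 0.479 and 0.566). Lpar5, known from microglia and from sensory neurons, had 0.196 ± 0.0901 RPKM, and Lpar3, known from the uterus, 0.0819 ± 0.0431 RPKM. No library was without reads of any of the receptors, but Lpar3 had 2 to 6 reads and Lpar5 1 to 9 reads per WT mouse.

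Neighbours in this order were compared within mice by exact two-sided paired permutation tests, adjusted over 10 pairs in both genotypes, with 0.0156 as the smallest p that 7 mice allow. The tests and their folds are on log2 RPKM with a prior count of 2, which draws receptors with few reads together. In all 7 WT mice Lpar1 exceeded Lpar6 (1.48-fold), Lpar6 exceeded Lpar4 (1.41-fold) and Lpar4 exceeded Lpar2 (3.81-fold, adjusted p = 0.026 for each, exact permutation). The RPKM of Lpar2 exceeded that of Lpar5 in 7 of 7 WT mice, with a ratio of the means of 2.11. On the scale of the test Lpar2 was higher in 5 of 7 (1.69-fold, adjusted p = 0.0625, exact permutation), and with a prior count of 0.5 the pair passed (adjusted p = 0.0223, exact permutation). Lpar5 exceeded Lpar3 in 6 of 7 WT mice (2.11-fold, adjusted p = 0.0391, exact permutation), which was lost with a prior count of 0.5 (adjusted p = 0.0781, exact permutation) and without division by length (adjusted p = 0.347, exact permutation).

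The order of the 6 means was the same in LPAR2-/- mice, but Lpar2 had moved up to the level of the more abundant receptors. Lpar1 had 4.40 ± 1.54 RPKM (SD, n = 7), Lpar6 2.49 ± 0.203, Lpar4 2.10 ± 0.336, Lpar2 1.67 ± 0.247, Lpar5 0.306 ± 0.0811 and Lpar3 0.0536 ± 0.0339. Lpar6 and Lpar4 could not be separated here (Lpar6 higher in 5 of 7, adjusted p = 0.0625, exact permutation), and Lpar4 was still above Lpar2 in 6 of 7 mice (1.26-fold, adjusted p = 0.0391, exact permutation). Lpar2 exceeded Lpar5 in 7 of 7 mice (4.57-fold with the prior count, adjusted p = 0.026, exact permutation). Without division by length, Lpar6 fell behind Lpar4 in both genotypes, and in LPAR2-/- mice Lpar2 came next after Lpar1.

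**Figure D1:**
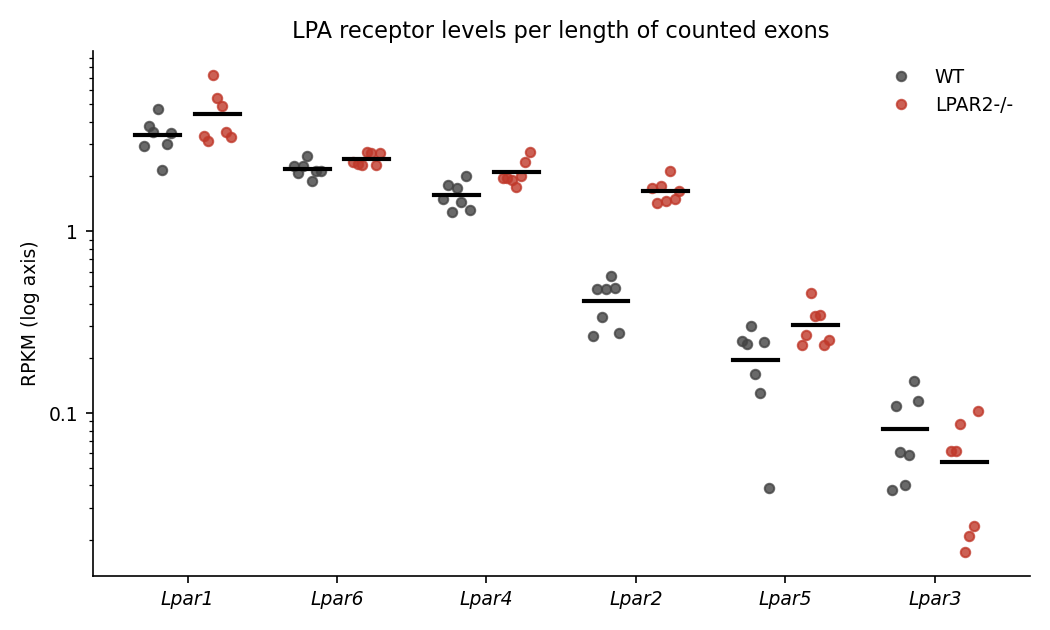
Levels of the 6 LPA receptors per length of counted exons in single mice (RPKM, log axis), ordered by their WT mean, with WT mice in grey and LPAR2-/- mice in red. Points are mice (7 per genotype) and lines are means. Lpar2 is the receptor whose genotypes are apart, at 0.414 RPKM in WT and 1.67 RPKM in LPAR2-/- mice.

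The summed level of the 6 receptors was 7.84 ± 1.09 RPKM in WT mice (lowest, median and highest 6.24, 7.77 and 9.70) and 11.03 ± 1.604 RPKM in LPAR2-/- mice (9.21, 10.7 and 13.8). Without Lpar2 the sums were 7.43 ± 1.08 and 9.36 ± 1.496 RPKM. Lpar2 itself made up 5.36% of the receptor sum in WT mice and 15.3% in LPAR2-/- mice. The share of Lpar1 was 42.5% and 39.0%, that of Lpar6 28.3% and 22.9%, that of Lpar4 20.3% and 19.5%, that of Lpar5 2.50% and 2.74%, and that of Lpar3 1.06% and 0.493%. These shares are a description without a test.

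Between the genotypes, Lpar2 and Lpar4 were higher in LPAR2-/- mice by the robust quasi-likelihood test of edgeR, and the other tested receptors did not pass it. Of all genes tested, 6.77% passed in either direction and 3.32% were higher in LPAR2-/- mice. Beside Lpar2, 1 of the 3 other tested receptors passed. At an unadjusted edgeR p under 0.05, 3 of the 4 tested receptors were higher, Lpar2 among them, where 22.4% of all genes tested were under this limit. For changes in CPM, counts are scaled to the library but not divided by length.

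Lpar2 rose from 2.36 ± 0.676 CPM in WT mice (lowest, median and highest 1.51, 2.73 and 3.23) to 9.55 ± 1.41 CPM in LPAR2-/- mice (8.20, 9.47 and 12.3). The log2 fold change was 2.01 with a standard error of 0.157 and a 95% interval of 1.68 to 2.34 (edgeR, adjusted p = 8.22e-07, a 4.03-fold difference). The genotypes did not overlap, which in this direction held for 0.866% of all genes tested. Lpar2 varied among WT mice by 28.7% (coefficient of variation) where counting error alone gives 14.7%, and among LPAR2-/- mice by 14.8% against 7.33%.

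Lpar4, a receptor that couples to several G proteins including Gs, lies on the X chromosome (106920625 to 106933899, plus strand). It was measured at 6.71 ± 1.16 CPM in WT mice (5.43, 6.38 and 8.56) and at 8.92 ± 1.42 CPM in LPAR2-/- mice (7.45, 8.36 and 11.5). All 7 LPAR2-/- mice lay above the WT median, and 2 lay above the highest WT mouse, so that the groups overlapped. The log2 fold change was 0.41 with a standard error of 0.117 and an interval of 0.16 to 0.65 (edgeR, adjusted p = 0.0478, 1.32-fold). This call was close to the threshold. It was kept when LPAR2-/- mouse 3, LPAR2-/- mouse 4 or WT mouse 6 was left out, but not when any one of the other 11 mice was (log2 fold change 0.34 to 0.47, adjusted p from 0.0316 to 0.0991 over the 14 fits). It was also lost in 2 of the 6 alternatives that kept all mice (edgeR and DESeq2 adjusted p from 0.0177 to 0.0778), among them that without the filter on low counts (0.052).

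Lpar1 was counted on chromosome 4 (58435252 to 58553491, minus strand). WT mice had 12.2 ± 2.86 CPM (7.87, 12.5 and 17.1) and LPAR2-/- mice 16 ± 5.60 CPM (11.4, 12.7 and 26.4). LPAR2-/- mice 3, 4 and 5 lay above the highest WT mouse with 26.4, 19.7 and 17.7 CPM, and the other 4 lay close to the WT median. The difference did not pass the test (log2 fold change 0.39, interval -0.04 to 0.83, edgeR adjusted p = 0.274). Without LPAR2-/- mouse 3 the log2 fold change was 0.23. The coefficient of variation of Lpar1 was 35.0% in LPAR2-/- mice, where counting error gives 5.56%.

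Lpar6 lies on the plus strand of chromosome 14 (73237891 to 73240358), inside intron 17 (73216780 to 73262528) of the 27-exon transcript of the retinoblastoma gene Rb1 on the minus strand. Another annotated Rb1 transcript has an exon that overlaps Lpar6 on the minus strand. The reads were counted by strand. Lpar6 was the steadiest receptor, at 5.44 ± 0.545 CPM in WT mice (4.64, 5.31 and 6.40) and 6.15 ± 0.502 CPM in LPAR2-/- mice (5.67, 5.90 and 6.76). Its variation among mice of 10.0% and 8.16% was close to the counting error of 9.71% and 9.12%. Every LPAR2-/- mouse lay above the WT median, 3 of them above the highest WT mouse. The edgeR p was 0.0476 unadjusted and 0.217 adjusted, so that Lpar6 did not pass (log2 fold change 0.18, interval 0.00 to 0.35).

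Lpar5 on chromosome 6 and Lpar3 on chromosome 3 were too low for the filter. Lpar5 had 41 reads in all WT libraries together and 65 in all LPAR2-/- libraries, a ratio of 1.58 after scaling to depth (exact counting interval 1.06 to 2.40), and 0.296 ± 0.137 against 0.464 ± 0.123 CPM per mouse. The counting intervals of Lpar5 and Lpar3 cover the counting error of pooled reads only. They leave out the spread among mice and do not test the genotypes. For Lpar5 the unadjusted exact two-sided permutation p over the mice was 0.028, and the adjusted p of edgeR without the filter was 0.28. The ranges of the genotypes overlapped, with 1 to 9 reads per WT mouse and 6 to 16 per LPAR2-/- mouse. Lpar3 had 27 and 18 reads, a ratio of 0.666 (0.345 to 1.25), with an unadjusted exact permutation p of 0.201, and no difference was detected.

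**Figure D2:**
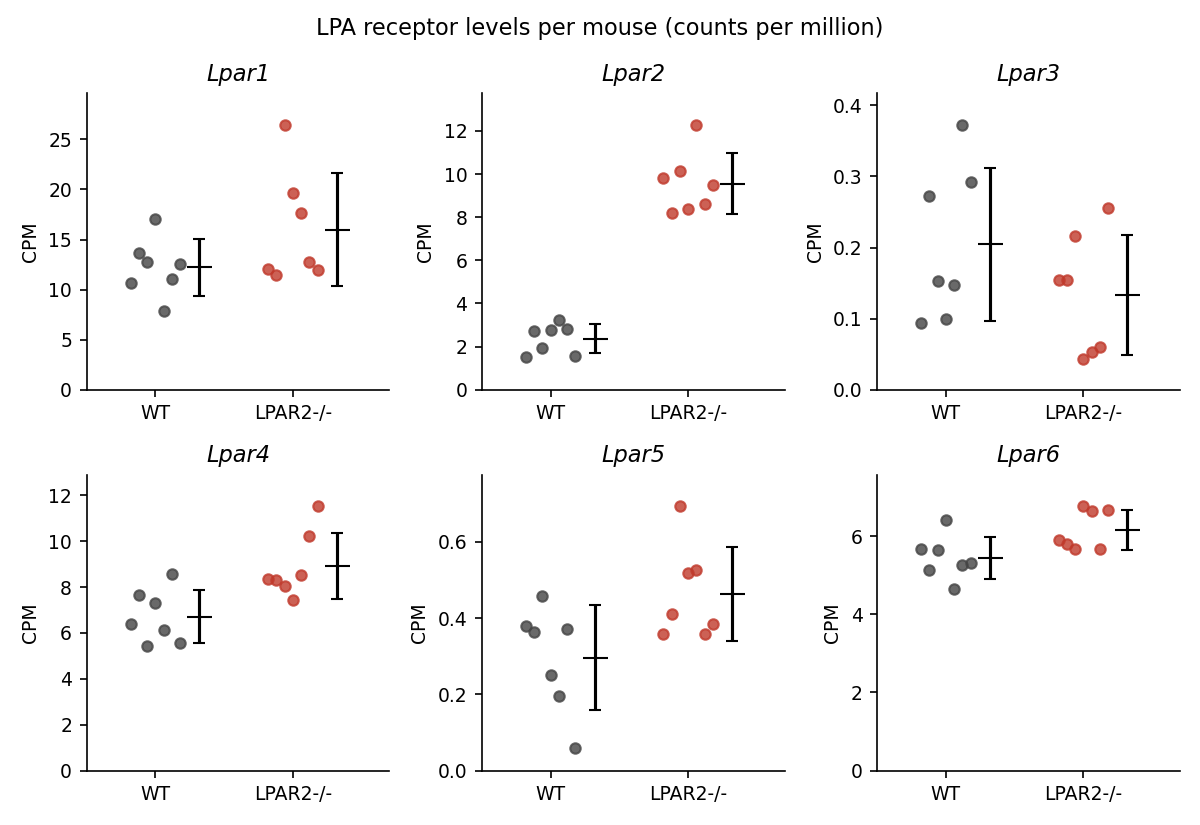
Levels of each LPA receptor in CPM for 7 WT mice (grey) and 7 LPAR2-/- mice (red), with the mean and SD beside the points and every axis starting at 0. The Lpar2 points of the genotypes do not overlap (highest WT mouse 3.23, lowest LPAR2-/- mouse 8.20 CPM), whereas those of the other 5 receptors do.

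The stretches before the start sites of Lpar2 and Lpar4 are shown because these receptors differed between the genotypes. They are the 250 bases upstream of the RefSeq start (GRCm38.p6, plus strand), with the letters of 4 short motifs in capitals wherever they occur on either strand: CACGTG (E-box), GGGCGG (GC box), CCAAT and TATAAA. Of 32851 mouse promoters of this length, 6.02% hold the E-box letters, 32.7% the GC box, 33.8% CCAAT and 12.4% TATAAA.
Lpar2 chr8:69822315-69822564: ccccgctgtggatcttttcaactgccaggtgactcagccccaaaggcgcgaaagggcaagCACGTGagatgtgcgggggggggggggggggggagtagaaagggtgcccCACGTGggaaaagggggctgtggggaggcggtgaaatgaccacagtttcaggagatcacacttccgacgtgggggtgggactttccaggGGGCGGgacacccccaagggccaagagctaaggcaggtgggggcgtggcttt
Lpar4 chrX:106920375-106920624: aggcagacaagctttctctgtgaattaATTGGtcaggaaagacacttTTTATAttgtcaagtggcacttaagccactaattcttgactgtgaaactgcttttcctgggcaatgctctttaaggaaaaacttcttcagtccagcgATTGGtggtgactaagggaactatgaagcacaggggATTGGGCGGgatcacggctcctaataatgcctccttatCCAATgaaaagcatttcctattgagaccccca

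The Lpar2 stretch has a GC content of 64.4% and holds the E-box letters at 190 and 141 bases and the GC box at 52 bases before the start. The Lpar4 stretch has 43.6% GC and holds CCAAT at 223, 106, 70 and 32 bases, TATAAA at 203 bases and the GC box at 67 bases, where it overlaps the CCAAT letters of the other strand at 70 bases. The pair thus shares the GC box letters only, and these also occur before starts of Lpar1, Lpar3 and Lpar5. The Lpar3 stretch holds the GC box 3 times, and the Lpar6 stretch holds none of the 4 motifs. These are matches of letters and say nothing of which factors bind.

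Genes beside the receptors were examined because they share the position but not the function. The 2 nearest tested genes on either side and any gene that overlaps a receptor were taken, 25 tested genes in all, of which 3 passed the test and all 3 were higher in LPAR2-/- mice, where 3.32% of all genes tested were called higher and 6.77% in either direction. Pbx4, a homeobox gene that starts 1.6 kb behind Lpar2 on the same strand, had 4.94 ± 0.726 CPM in WT and 8.61 ± 1.08 CPM in LPAR2-/- mice (log2 fold change 0.80 ± 0.104 SE, edgeR adjusted p = 0.000336). Gmip, which ends 0.695 kb before Lpar2, was at 16.4 and 17.4 CPM (log2 fold change 0.08, adjusted p = 0.686 in edgeR), and Atp13a1 and Cilp2 farther away had log2 fold changes of 0.03 and 0.06. The other called genes lie at a distance. Zcchc5, 80 kb before Lpar4, had a log2 fold change of 0.63 (edgeR adjusted p = 0.0336), and Svep1, which encodes a matrix protein 229 kb before Lpar1, had 1.31 at levels of 0.639 and 1.58 CPM (adjusted p = 0.043). With single mice removed in turn, the call of Zcchc5 was kept in 4 of 14 fits and that of Svep1 in 4, with 1 fit (without LPAR2-/- mouse 3) in common, whereas that of Pbx4 was kept in 14. Without the filter on low counts the call of Zcchc5 was lost (edgeR adjusted p = 0.0501). On the X chromosome, Itm2a behind Lpar4 had a log2 fold change of 0.31 and did not pass (edgeR adjusted p = 0.115). Rb1, the host of Lpar6, had 41.2 ± 3.85 CPM in WT and 42.4 ± 4.05 CPM in LPAR2-/- mice (log2 fold change 0.04 ± 0.0674 SE).

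**Figure D3:**
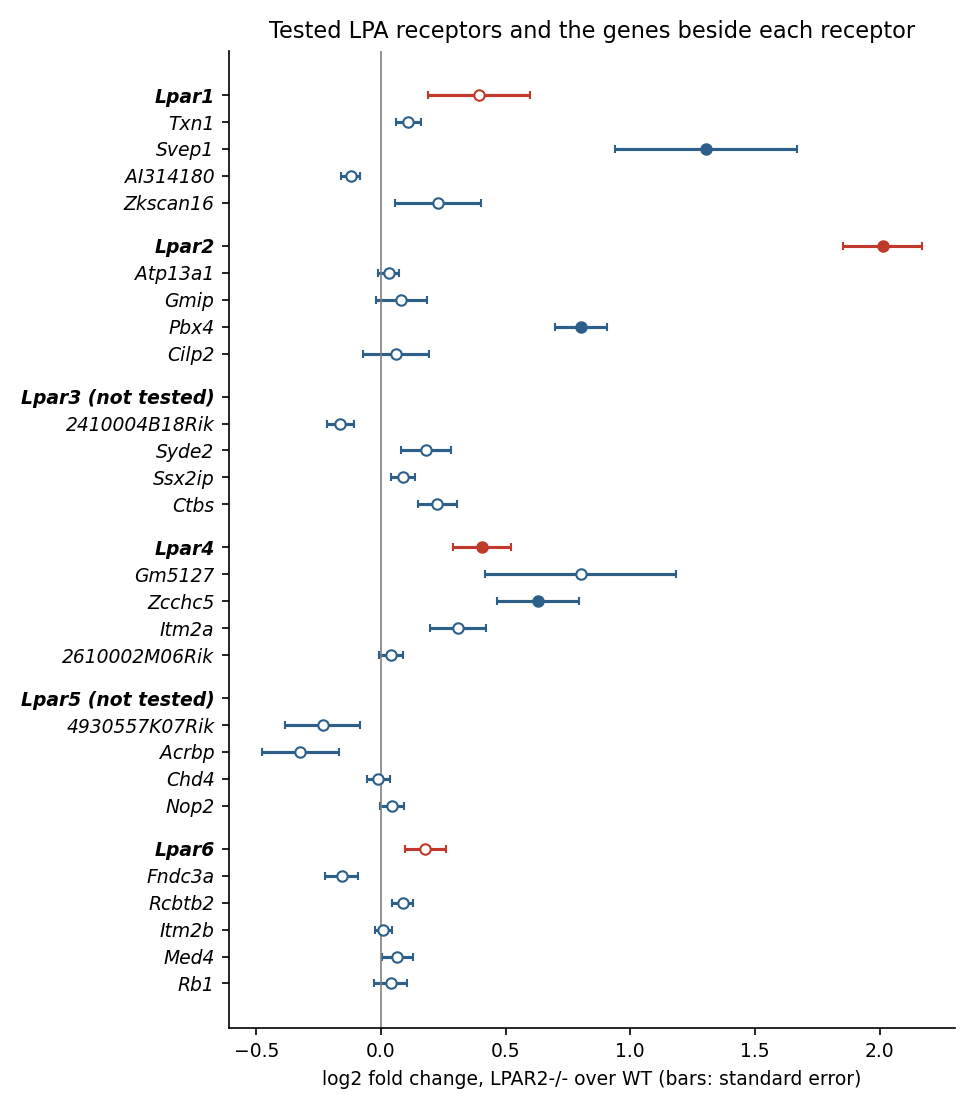
Log2 fold changes of the tested LPA receptors (red, bold) and the genes beside each receptor (blue), LPAR2-/- over WT, with standard errors. Filled points passed an adjusted p of 0.05 in edgeR. Beside Lpar2, Pbx4 (0.80) is filled while Atp13a1, Gmip and Cilp2 lie at 0.03 to 0.08.

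Most other genes of the LPA system did not pass the test. Over 8 lists with 62 tested members, 4 members were lower and 0 higher in LPAR2-/- mice by edgeR, against 3.46% and 3.32% of all genes tested. DESeq2 likewise gave 4 lower and 0 higher. At an unadjusted p under 0.05 there were 5 lower and 6 higher members, or 11 of 62, where 22.4% of all genes tested were under this limit.

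The enzymes that make LPA had 1 of 8 tested members lower. Gdpd1, a phosphodiesterase that releases LPA from lysophospholipids inside cells, fell from 58.3 ± 2.76 to 50.5 ± 1.61 CPM (log2 fold change -0.21 ± 0.0370 SE, edgeR adjusted p = 0.00358), with no overlap between 53.9 to 61.9 CPM in WT and 47.2 to 52.2 CPM in LPAR2-/- mice. Groups without overlap in either direction were found for 1.77% of all genes tested. Enpp2, which encodes autotaxin, had 75.2 ± 12.8 and 97.1 ± 45.2 CPM. Its LPAR2-/- mice spread from 58.0 to 178 CPM and passed the WT range of 57.9 to 91.9 CPM at the upper end only. The highest value was that of LPAR2-/- mouse 2, whose choroid plexus markers stood apart at 290.1 CPM. The part of that tissue in the Enpp2 values was not tested. The adjusted p of edgeR for Enpp2 was 0.399. Gpat4, Gpam and Agk, acyltransferases and a lipid kinase that make LPA inside cells, had log2 fold changes of -0.06, 0.11 and -0.10. The median of the list was 0.02, beside 0.00 for all genes tested.

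The enzymes that remove LPA had 1 of 9 members lower. Agpat5, which turns LPA into phosphatidic acid, fell from 56.8 ± 3.68 to 43.5 ± 4.12 CPM (log2 fold change -0.39 ± 0.0591 SE, edgeR adjusted p = 0.0013). Its lowest WT mouse had 53.3 CPM and its highest LPAR2-/- mouse 49.2 CPM. The phosphatase Plpp3, the most abundant member, was at 293 and 297 CPM, and Agpat3 and Agpat1 had log2 fold changes of -0.04 and -0.02. The median of this list was 0.02. The plasticity-related genes, with 0 of 5 members called by edgeR or DESeq2 and 1 at an unadjusted p under 0.05, had a median of 0.09. Plppr4, which encodes PRG1, was at 621 ± 26.7 and 679 ± 50.5 CPM (log2 fold change 0.13, edgeR adjusted p = 0.116).

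G proteins and their effectors, through which the receptors signal, had 2 of 20 members lower and a median of -0.03. Arhgef12, a guanine nucleotide exchange factor that links G12/13 to RhoA, fell by 0.17 on the log2 scale, from 205 ± 12.8 to 183 ± 7.15 CPM (edgeR adjusted p = 0.028). Rock2, a kinase activated by RhoA, fell by 0.15, from 193 ± 8.97 to 174 ± 6.46 CPM (edgeR adjusted p = 0.022). The call of Rock2 was kept in 14 of 14 fits without 1 mouse, and that of Arhgef12 in 9. Over the 6 alternatives that kept all mice, the adjusted p ranged from 0.00135 to 0.0835 for Rock2, with 1 of them not past the threshold, and from 0.0048 to 0.0731 for Arhgef12, with 2 not past it, among them the upper quartile (0.0515 in edgeR). Of the members that did not pass, Gnas, Gnao1, Gnaq and Plcb1 had the highest mean CPM, with log2 fold changes of -0.01, -0.04, -0.12 and 0.01. Of the genes of 4 proteins known to bind LPAR2, 0 passed in edgeR or DESeq2 and 0 had an unadjusted p under 0.05, with log2 fold changes of 0.01 for Slc9a3r2 and Magi3, 0.07 for Siva1 and -0.13 for Trip6.

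Targets of the transcription factors YAP and SRF, which LPA receptors are known to drive, had 0 of 11 tested members past the test in edgeR or DESeq2, 2 at an unadjusted p under 0.05, and a median of 0.04. Actb was at 1064 and 1073 CPM and Srf at 82.3 and 84.6 CPM. Ccn2, Acta2, Tagln and Myl9 had log2 fold changes of 0.81, 0.85, 0.87 and 0.83 with adjusted p of 0.218, 0.316, 0.236 and 0.111 in edgeR. Acta2 and Tagln also belong to the smooth muscle markers, whose summed level is given below. Among the related S1P receptors, 0 of 5 passed in edgeR or DESeq2, and 0 had an unadjusted p under 0.05. S1pr1 was the most abundant of both families at 167 ± 27.0 and 156 ± 8.96 CPM, and in WT mice its 55.1 RPKM stood against the 3.36 RPKM of Lpar1. P2ry10 and Gpr35, which have been proposed as further LPA receptors, were below the filter, with means of 0.0360 and 0.435 CPM in WT mice.

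**Figure D4:**
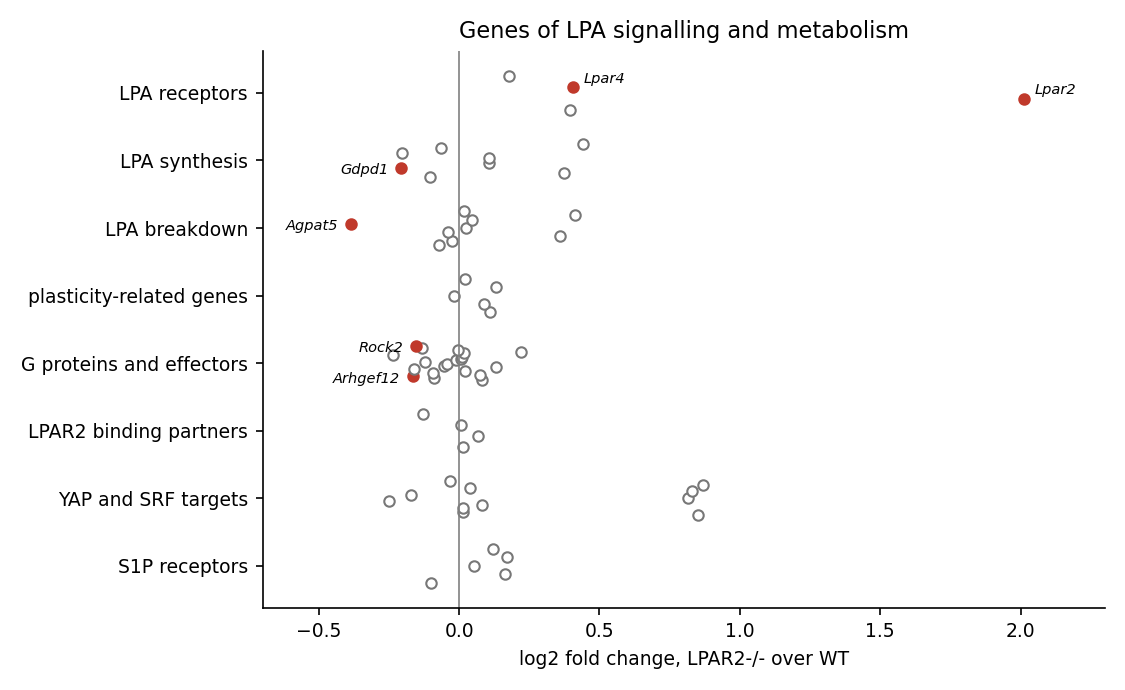
Log2 fold changes (LPAR2-/- over WT) of the tested genes in 8 groups, 1 point per gene. Red points passed an adjusted p of 0.05 in edgeR. Lpar2 (2.01) and Lpar4 (0.41) lie to the right, and the 4 other called genes lie to the left between -0.39 and -0.15.

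To see in which libraries the receptors were high, receptor levels were compared with the mean log2 CPM of cell type markers over the 7 mice of each genotype, in 12 correlations with exact two-sided permutation tests and adjustment over the 12. Bulk RNA cannot tell a different number of cells of a type from a different amount of RNA per cell.

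Lpar1 was higher in libraries with higher oligodendrocyte markers, past the adjusted threshold in LPAR2-/- mice and before adjustment only in WT mice. In WT mice r was 0.806 (exact permutation p = 0.0323, adjusted 0.0776) and Spearman's coefficient 0.643 (p = 0.139, adjusted 0.278), and r was 0.837 without the 2 mice farthest from the median of the markers. In LPAR2-/- mice r was 0.902 (exact permutation p = 0.00754, adjusted 0.0452) and Spearman's coefficient 0.643 (p = 0.139, adjusted 0.278), but r was 0.417 without mice 3 and 4, so that the relation there rests on these mice. LPAR2-/- mouse 3, with the highest Lpar1 level of all, also had the highest marker level. Of the 12 oligodendrocyte markers, 10 were higher and 0 called by edgeR or DESeq2 (0 at an unadjusted p under 0.05), with summed levels of 1321 to 2272 CPM in WT and 1076 to 4359 CPM in LPAR2-/- mice. None was at 0 in any mouse. The direction rested on LPAR2-/- mouse 3, since without it 1 marker was higher and 11 were lower, with a mean sum of 1492 CPM in the remaining LPAR2-/- mice and 1749 CPM in WT mice. The part of these markers in the Lpar1 values was not tested.

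Lpar1 and the meningeal fibroblast markers gave no stable relation. In WT mice r was 0.863 (exact permutation p = 0.0272, adjusted 0.0776) and Spearman's coefficient 0.607 (p = 0.167, adjusted 0.286), but r was -0.0582 without mice 4 and 5. In LPAR2-/- mice r was -0.21 (exact permutation p = 0.644, adjusted 0.773) and Spearman's coefficient 0.214 (p = 0.662, adjusted 0.794), and r was 0.897 without mice 2 and 3. Of these 12 markers 11 were higher in LPAR2-/- mice, 10 of them at an unadjusted p under 0.05 (22.4% of all genes tested), with a median log2 fold change of 1.14. By edgeR 1 of them, Lum, was called. Their summed levels were 86.2 to 417 CPM in WT and 122 to 605 CPM in LPAR2-/- mice, with none at 0 in any mouse, and their part in the receptor values was not tested.

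Lpar6 was higher in libraries with higher endothelial markers, past the adjusted threshold in WT mice and before adjustment only in LPAR2-/- mice. In WT mice r was 0.93 (exact permutation p = 0.00536, adjusted 0.0452) and Spearman's coefficient 0.821 (p = 0.0341, adjusted 0.137), and r was 0.641 without mice 4 and 5. In LPAR2-/- mice r was 0.889 (exact permutation p = 0.0183, adjusted 0.073) and Spearman's coefficient 0.857 (p = 0.0238, adjusted 0.137), and r was 0.86 without mice 2 and 6. Of the 12 endothelial markers 6 were higher and 6 lower in LPAR2-/- mice, with sums of 253 to 382 CPM in WT and 273 to 387 CPM in LPAR2-/- mice. Called were 0 by edgeR and 1 by DESeq2, and 1 had an unadjusted p under 0.05. With microglia, where Lpar6 has also been described, r was 0.511 (exact permutation p = 0.237, adjusted 0.406; Spearman's coefficient 0.679, p = 0.11, adjusted 0.278) in WT and 0.354 (p = 0.409, adjusted 0.545; Spearman's coefficient 0.464, p = 0.302, adjusted 0.454) in LPAR2-/- mice. Without the farthest mice, 1 and 7 in WT and 1 and 2 in LPAR2-/-, r was 0.748 and -0.209.

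Lpar4 did not follow the markers of pericytes and smooth muscle. Its r was -0.0124 (exact permutation p = 0.977, adjusted 0.977; Spearman's coefficient -0.0714, p = 0.906, adjusted 0.963) in WT and -0.066 (p = 0.886, adjusted 0.966; Spearman's coefficient -0.0357, p = 0.963, adjusted 0.963) in LPAR2-/- mice, and -0.531 and -0.875 without the farthest 2 mice. These markers summed to 169 to 362 CPM in WT and 219 to 423 CPM in LPAR2-/- mice, with 7 of 10 higher, 4 of them at an unadjusted p under 0.05, a median log2 fold change of 0.35 and 1, Notch3, called by edgeR. For Lpar5 and the microglial markers r was 0.541 (exact permutation p = 0.207, adjusted 0.406; Spearman's coefficient 0.857, p = 0.0238, adjusted 0.137) in WT and 0.399 (p = 0.363, adjusted 0.545; Spearman's coefficient 0.214, p = 0.662, adjusted 0.794) in LPAR2-/- mice, and 0.582 and -0.115 without the farthest 2, on 1 to 16 reads per mouse.

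**Figure D5:**
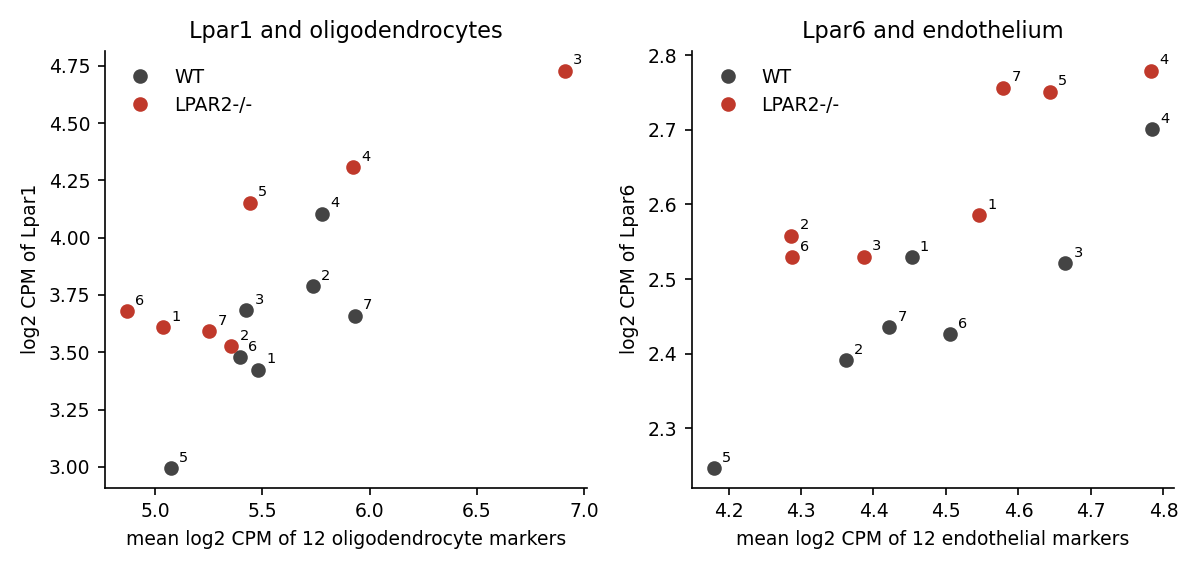
Log2 CPM of Lpar1 against the mean log2 CPM of 12 oligodendrocyte markers (left) and of Lpar6 against that of 12 endothelial markers (right), with the mouse number beside each point. LPAR2-/- mouse 3 lies alone at the upper right of the Lpar1 plot. In the Lpar6 plot both genotypes rise from left to right (r = 0.93 in WT and 0.889 in LPAR2-/- mice).

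Over all 14 mice, after the genotype means had been subtracted, the receptors were compared with 14081 genes, as a description without a test. The genes most like Lpar1 were Clic4 (r = 0.972) and Itgb4 (0.955). Those most like Lpar6 were Foxf2 (0.952), Slc16a12 (0.931) and Ephb4 (0.92). Those most like Lpar4 were Mat2a (0.919), Mynn (0.917) and Ncbp1 (0.915), and in each of these 8 genes the likeness was at least 0.859 within either genotype alone. For Lpar2 they were Pias2 (0.902), Hcfc2 (0.882) and Kdm5c (0.845), with r between 0.945 and 0.978 among WT mice but between 0.433 and 0.556 among LPAR2-/- mice. These genes were picked as the highest of 14081 over the same 14 mice. High values over all mice and within a genotype therefore follow in part from the choice, and the genotypes are not independent checks. Points of such correlations share a library and its depth. Among the receptors themselves the highest likeness was 0.418, between Lpar1 and Lpar6, followed by 0.39 between Lpar2 and Lpar4, and the other 4 pairs of the 4 tested receptors lay between -0.198 and 0.0699.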

How the data were processed

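Hippocampal RNA of 7 mice labelled LPAR2-/- and 7 WT mice was sequenced once per mouse. The authors trimmed adapters (cutadapt 1.18), mapped the reads to mm10 (STAR) and assigned them by reverse strand to the exons of each gene (featureCounts 1.6.3). The deposited counts are whole reads without normalization and cover 15434620 to 23258949 reads per mouse, so that a count of 0 would allow up to 3 counts. This covers counting error only. Exon lengths per gene come from the deposited table. A deposited table of normalized values was not used, since its decimal points are lost.

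The members and gene lists were chosen with earlier results of these data known. Named genes were the receptors, called list members and the most abundant others, the 2 nearest genes on either side, and the 3 most similar genes per receptor with a median of at least 50 counts (mean of at least 1 CPM). Some members of these groups are not reported here. Receptor start sites were taken from RefSeq (GRCm38.p6, 6 of 6 matched). The 8 pathway lists and 15 lists of cell types and regions were described by counts and medians.

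Calculations used R 4.3.3 with edgeR 4.0.16 (filterByExpr, TMM, robust quasi-likelihood F test, no covariates, Benjamini-Hochberg over all genes tested, threshold 0.05) and were tested on simulated data. Log2 values per mouse carry a prior count of 2. Alternatives were DESeq2 1.42.0, its size factors, the upper quartile, a filter of at least 10 counts per library or none, the mouse number as a block, each mouse left out, a prior count of 0.5, and no division by length. In 42 pairs of libraries within a genotype, counts differed by more than sampling noise (chi-square over its degrees of freedom at least 3.36).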

Additional observations from a re-analysis of the deposited data

Results flagged for a closer look

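In 42 checks, of the levels of the 6 receptors and the summed levels of the 15 marker lists within each genotype, 5 values stood apart from the other 6 mice by Dixon's criterion, where chance picks out about 1 in 20 groups. The summed oligodendrocyte markers of LPAR2-/- mouse 3 were 4359 CPM, with 1076 to 2182 CPM in the other mice of that genotype. The summed choroid plexus markers of LPAR2-/- mouse 2 were 290.1 CPM, with 25.7 to 52.4 CPM in the others. The summed meningeal fibroblast markers of WT mouse 4 were 417 CPM, with 86.2 to 202 CPM in the other WT mice. The summed CA1 markers of WT mouse 2 were 333 CPM, with 98.2 to 136 CPM in the others. The summed microglial markers of WT mouse 1 were 580 CPM, with 436 to 494 CPM in the others. No receptor level stood apart in this way.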

How the results depend on the processing

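The log2 fold change of Lpar2 was called under every alternative run, from 1.92 to 2.10. That of Lpar4 ranged from 0.34 to 0.47 when 1 mouse was left out, and it lost its call without the filter on low counts (0.41, adjusted p = 0.052 in edgeR) and with a replicate block for the mouse number (0.41, adjusted p = 0.0778 in edgeR). The number of called receptors beside Lpar2 was accordingly 0 without the filter, 0 with the block, and from 0 to 1 without 1 mouse. Lpar1 (0.23 to 0.49) and Lpar6 (0.14 to 0.22) kept their sign and were called in no fit. For Lpar5 the log2 fold change ranged from 0.46 to 0.78 without 1 mouse, with an exact permutation p under 0.05 in 8 of 14 sets, and was 0.64 without the filter (edgeR adjusted p = 0.28). Called pathway genes numbered 0 to 1 higher and 3 to 5 lower without 1 mouse, and 2 lower with the block, where Arhgef12 and Rock2 were lost (adjusted p = 0.0731 and 0.0835 in edgeR). Arhgef12 was also lost with the upper quartile. Called genes beside the receptors numbered 1 to 5 without 1 mouse.

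Mice with the same number did not deviate together (correlations -0.334 to 0.311, 3 of 7 over 0.1, 3 of 7 best matched to their own number), and the block lowered the genes called from 1009 to 586. Leaving out 1 mouse gave 567 to 1385 calls. Scaling by the upper quartile gave 616 higher and 377 lower genes, against 494 and 515 with TMM.

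In the order of levels, a prior count of 0.5 gave log2 ratios of 1.10 for Lpar2 over Lpar5, past the threshold (adjusted p = 0.0223, exact permutation), and 1.17 for Lpar5 over Lpar3, no longer past it (0.0781), in WT mice. Without division by length, Lpar6 over Lpar4 was -0.29 in WT and -0.52 in LPAR2-/- mice, Lpar4 over Lpar2 was -0.10 in LPAR2-/- mice, and in WT mice Lpar2 over Lpar5 was 2.67, then past the threshold, and Lpar5 over Lpar3 was 0.36, no longer past it. Counted lengths show the cause, since Lpar6 has 2468 bases, Lpar4 4237 and Lpar2 5701. Without the 2 mice farthest from the median of the marker list, r was 0.417 for Lpar1 with oligodendrocytes in LPAR2-/- mice, -0.0582 and 0.897 for Lpar1 with meningeal fibroblasts in WT and LPAR2-/- mice, -0.531 and -0.875 for Lpar4 with pericytes, -0.115 for Lpar5 and -0.209 for Lpar6 with microglia in LPAR2-/- mice, and 0.641 for Lpar6 with endothelium in WT mice. The causes of the other changes were not tested. Lpar3 and Lpar5 were below the filter on low counts, and the part of sequencing depth in their results was not tested.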

Other observations

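The remaining lists of cell types and regions had summed levels that overlapped between the genotypes. Choroid plexus markers, with 3 of 8 tested and 0 called by edgeR (1 by DESeq2, and 2 at an unadjusted p under 0.05), ranged from 28.3 to 33.6 CPM in WT and from 25.7 to 290.1 CPM in LPAR2-/- mice, in which Ttr, a thyroid hormone carrier made by this tissue, reached 242 CPM. Astrocyte markers ranged from 5167 to 5898 and from 4982 to 5831 CPM, and markers of oligodendrocyte precursors from 163 to 191 and from 144 to 201 CPM, with 0 called by edgeR or DESeq2 in either list and 0 and 3 at an unadjusted p under 0.05. Markers of CA1 (98.2 to 333 and 84.1 to 171 CPM), CA3 (260 to 390 and 254 to 377 CPM) and thalamus (71.5 to 104 and 65.4 to 105 CPM) had 0 called by edgeR or DESeq2 and 0 at an unadjusted p under 0.05, and those of the dentate gyrus had 1 called, Tdo2, with a log2 fold change of 0.45. Among blood genes, Hba-a1, Hba-a2, Hbb-bs and Hbb-bt are listed at 0 in all mice.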
